A study of Mus musculus with 8 samples.

Results

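The genes described here are 10 Wnt pathway genes of mouse skin tumour cells: the receptors Lgr5 and Lgr6, the antagonists Apcdd1, Axin2, Nkd1, Wif1, Dkk3 and Sfrp1, and the transcription factors Lef1 and Tcf7l2. They were chosen by name, out of 17097 genes with a probe set of their own on the array, and all 24 probe sets annotated to them were read on all 8 arrays. Of these 24, 21 are annotated to 1 gene and 3 to both Serinc3 and Sfrp1. RNA came from tumour cells sorted for Epcam, a surface protein of epithelia, and there were 4 groups of 2 arrays. They were papilloma overexpressing NR2F2 (gain of function, here GOF, the genotype label being NR2F2 GOF) against control papilloma (NR2F2 WT), and squamous cell carcinoma of the genotype K5CreER;NR2F2fl/fl (label NR2F2 KO) against carcinoma without Cre (NR2F2 WT). In the KO, recombination depends on a CreER expressed from the keratin 5 promoter, which is active in basal epithelial cells. The labels used here give no driver for the overexpression, no strain, no age and no tumour protocol, nor do they state that replicate arrays are separate animals, so the p-values rest on the spread among arrays, which may be technical.

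Wnt ligands bind Frizzled and LRP receptors on the cell surface. This stops the destruction complex from degrading beta-catenin, which then joins TCF and LEF factors on target genes. Several targets encode brakes on the pathway: Axin2 is a scaffold of the destruction complex, Nkd1 acts on Dishevelled, and Apcdd1 is a membrane protein that inhibits Wnt signalling. Wif1 and Sfrp1 are secreted proteins that bind Wnt ligands, and Dkk3 is a secreted relative of the Dickkopf antagonists. Lgr5 and Lgr6 are receptors for R-spondins, which raise Wnt receptor levels at the surface. In skin, Lgr5 marks stem cells of the lower hair follicle and Lgr6 cells of the upper follicle and epidermis, and Wnt signalling drives hair follicle growth.

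Values are RMA values on the log2 scale. The 2 tumour types were on different scales, with array medians of 3.12 to 3.16 in papilloma and 5.08 to 5.15 in carcinoma, so every fold change was taken within a tumour type. Background on an array was set by 44 control probe sets without mouse sequence, as their highest value, 3.09 to 3.33 in papilloma and 4.95 to 5.01 in carcinoma. Nr2f2 followed the labels, at 11.45 ± 0.03 in GOF against 2.67 ± 0.17 in control papilloma, and at 4.89 ± 0.16 in KO against 8.03 ± 0.15 in control carcinoma (SD, n = 2 each). All 7 keratinocyte markers examined were above background on all 8 arrays, while the sorting antigen Epcam fell in GOF papilloma (log2 fold change -1.53 ± 0.22 SE, adjusted p = 0.0372 by limma).

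In GOF papilloma the brighter of the 2 Lgr5 probe sets lay at or below background, and in control papilloma above it. The other Lgr5 probe set was below background in both. On their brightest probe sets, Apcdd1, Axin2, Sfrp1 and Tcf7l2 had lower values on both GOF arrays than on either control array. So did Lgr6, and Wif1 and Lef1, whose GOF values were below background. In bulk samples, fewer cells of a type and less RNA per cell cannot be told apart. None of the 10 genes passed the threshold, a Benjamini-Hochberg adjusted p under 0.05 in a limma fit over all 45037 probe sets. It was passed by 83 probe sets (0.184%), and the lowest adjusted p among the member probe sets was 0.0964. At an unadjusted p under 0.05, 9 of the 21 single-gene probe sets were lower and 0 higher, against 6.03% lower and 6.89% higher over all probe sets. By sign, 19 of the 21 had a negative log2 fold change, with a median of -0.46, beside a median of -0.01 over all probe sets. In 15 of the 21 both GOF arrays lay below both control arrays, against 21.2% of all probe sets. Probe sets of 1 gene share their transcript, so these are not independent counts, and the genes were not chosen blind to these data.

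In KO carcinoma Apcdd1 again had lower values, at or below background on both KO arrays, and Dkk3 and Tcf7l2 had lower values on both KO arrays than on either control array. Lgr5 and Nkd1 were also lower without overlap, but their nearest pairs of arrays differed by only -0.14 and -0.006. Axin2 differed little. None of the 10 genes passed there either, whereas 3 of 45037 probe sets (0.00666%) did, and the lowest adjusted p among the members was 0.187. At an unadjusted p under 0.05 by limma, 5 of the 21 probe sets were lower and 0 higher. Over all probe sets these shares were 4.06% and 6.76%. These 5 were the 3 Apcdd1 probe sets, the dimmer Dkk3 probe set and a dim Tcf7l2 probe set, and are not independent counts. On the brightest probe set of each of the 10 genes, 1 was lower, that of Apcdd1, and 0 higher. A negative log2 fold change was found for 17 of the 21, with a median of -0.47, beside 0.01 over all probe sets, and 13 of the 21 were lower without overlap, against 17.7% of all probe sets.

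**Figure D1:**
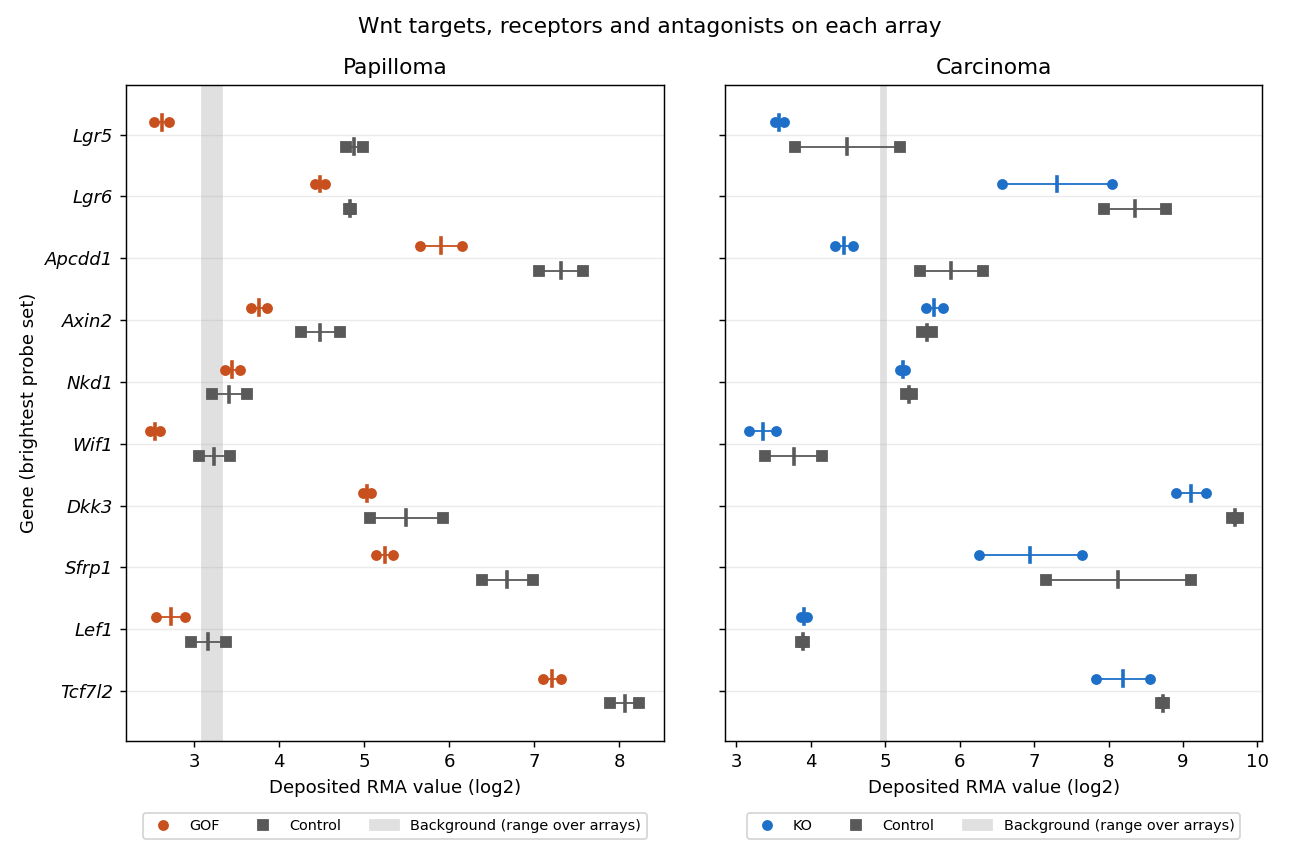
RMA values (log2) of the brightest single-gene probe set of each of the 10 genes on each array, in papilloma (left) and carcinoma (right). Points are single arrays, vertical ticks the mean of the 2 arrays of a group, and the grey band the range of background over the 4 arrays. Lgr5 lies left of the band on both GOF arrays and right of it on both control papilloma arrays, and Apcdd1 lies left of it on both KO arrays.

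Lgr5 is the stem cell receptor of the set and showed the widest gap in papilloma. On the probe set 1450988 it stood at 2.71 and 2.53 on the GOF arrays, against 4.98 and 4.79 on the control papilloma arrays. Both GOF arrays were below background, both controls above it, and all 4 array pairs differed by at least 2.08. Control probes binned by GC content, which did not set background, reached 5.21 on control papilloma replicate 1, above Lgr5 there. The log2 fold change was -2.27 (SE 0.41; adjusted p = 0.0635 over 13939 genes, of which 169 or 1.21% passed), or at least 3.15-fold lower.

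Lgr5 entered the gene table through control arrays alone, as all its GOF and KO values were below the cut of 4.23. Within papilloma too, its control arrays alone exceeded the median, so a filter set there keeps it through that group. With no filter on level its adjusted p in papilloma was 0.0758 by limma. The Lgr5 value in papilloma lay close to the threshold, passing it in 6 of 17 alternatives of the processing. By limma it did not pass with the replicate number as a block (adjusted p = 0.0955), with probe sets averaged (0.0649) or with a trended and robust prior (0.06). Nor did it pass without probe sets that may cross-hybridise (0.0627) or without either KO array. It passed when the 4 papilloma arrays were fitted alone (adjusted p = 0.0175), with quantile normalization of all 8 arrays (-2.95, 0.0162), with median centring (0.0453), with a filter set within each tumour type (0.0484), and without either control carcinoma array (0.00886), which acts through the shared spread. Leaving out 1 papilloma array gave adjusted p-values from 0.136 to 0.305.

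In carcinoma the same Lgr5 probe set was below background except on 1 array. It stood at 3.52 and 3.64 in the KO, against 3.79 and 5.20 in control carcinoma, so that control replicate 2 alone exceeded background. The log2 fold change was -0.91 (SE 0.41; adjusted p = 0.398). Without control replicate 2 it was -0.20 (adjusted p = 0.845), and without control replicate 1 it was -1.62 and passed (0.0315). The other Lgr5 probe set, 1444519, was below background on all 8 arrays, at 2.81 and 2.85 in GOF against 3.10 and 2.85 in control papilloma, and at 4.02 and 4.04 in KO against 4.18 and 4.26 in control carcinoma. It therefore gave no fold.

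Lgr6, the receptor of the upper follicle and epidermis, has 1 probe set, above background on every array. It stood at 4.54 and 4.42 in GOF, against 4.82 and 4.84 in control papilloma. The groups did not overlap but lay close, with a log2 fold change of -0.35 (SE 0.48; adjusted p = 0.807). In carcinoma it stood at 8.05 and 6.56 in the KO, against 8.78 and 7.94 in the controls, where the groups overlapped. The log2 fold change was -1.05 (SE 0.48; adjusted p = 0.406), and it was -0.31 without KO replicate 2 and -1.79 without KO replicate 1.

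Apcdd1 had lower values without overlap in both comparisons on each of its 3 probe sets. On probe set 1418383 it stood at 6.15 and 5.65 in GOF, against 7.57 and 7.06 in control papilloma, a log2 fold change of -1.41 (SE 0.33; adjusted p = 0.104) or 2.66-fold lower. In carcinoma the values were 4.33 and 4.57 in the KO, against 6.32 and 5.46 in the controls, a log2 fold change of -1.44 (SE 0.33; adjusted p = 0.165). Both KO arrays were at or below background, so the fold is at least 1.88-fold lower. The other probe sets were close by, at -1.50 and -1.46 in GOF papilloma and at -1.18 and -1.28 in KO carcinoma. In all 3 probe sets and both comparisons no GOF or KO array overlapped a control, and the nearest pair of arrays was 0.71 apart. Across all alternatives of the processing the log2 fold change ran from -1.66 to -1.16 in GOF papilloma and from -1.87 to -1.02 in KO carcinoma, without passing in any.

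Axin2, the negative-feedback scaffold and a standard readout of Wnt activity, had lower values in GOF papilloma and near-equal values in carcinoma. On probe set 1421341 it stood at 3.86 and 3.67 in GOF, against 4.71 and 4.26 in control papilloma, all above background and without overlap. The log2 fold change was -0.72 (SE 0.19, unadjusted p = 0.00764, adjusted p = 0.133), or 1.65-fold lower. In carcinoma it stood at 5.77 and 5.54 in the KO, against 5.63 and 5.50 in the controls, with overlapping groups and a log2 fold change of 0.09 (SE 0.19; adjusted p = 0.924). The difference between these effects was -0.81 (SE 0.27; adjusted p = 0.265). The dimmer probe set 1436845 gave -0.21 in GOF papilloma, with both GOF arrays below background, and 0.25 in KO carcinoma, with both control arrays below background.

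Nkd1, the feedback inhibitor that acts on Dishevelled, was close to background throughout. Its brightest probe set stood at 3.36 and 3.54 in GOF against 3.62 and 3.21 in control papilloma, and at 5.20 and 5.27 in KO against 5.36 and 5.27 in control carcinoma. The log2 fold changes of its 4 probe sets ran from -0.28 to 0.04 in GOF papilloma and from -0.17 to 0.02 in KO carcinoma, and none had an unadjusted p under 0.05. Whether its papilloma value differs from that of Axin2 was not tested.

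**Figure D2:**
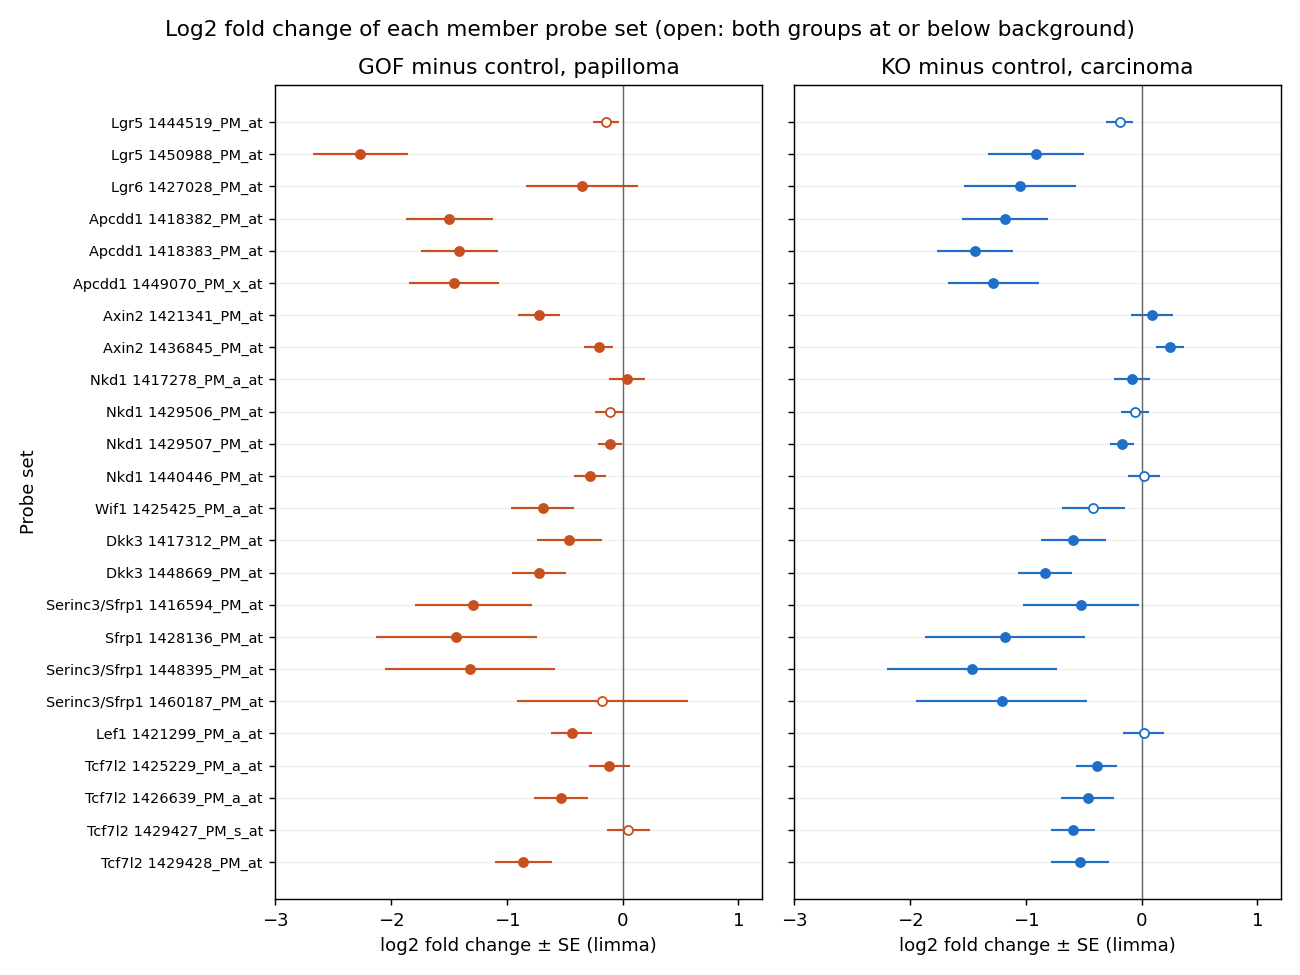
Log2 fold change with its standard error (limma fit over all probe sets) for all 24 probe sets, GOF minus control in papilloma (left) and KO minus control in carcinoma (right). Open points mark probe sets with both groups at or below background. The 3 Apcdd1 probe sets lie between -1.50 and -1.18 in both panels, whereas the 2 Lgr5 probe sets lie at -0.14 and -2.27 in papilloma.

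Of the secreted antagonists, Sfrp1 had lower values in GOF papilloma, without passing, and varied widely within the carcinoma groups. Its single-gene probe set stood at 5.14 and 5.34 in GOF, against 6.38 and 6.98 in control papilloma. The groups were at least 1.04 apart, with a log2 fold change of -1.44 (SE 0.68; adjusted p = 0.361), or 2.71-fold lower. In carcinoma it stood at 6.26 and 7.64 in the KO, against 7.16 and 9.10 in the controls, and the groups overlapped (log2 fold change -1.18, SE 0.68, adjusted p = 0.517). The value was -0.21 without control carcinoma replicate 2 and -0.49 without KO replicate 1, and -2.15 and -1.87 without the other array of each group. The 3 probe sets annotated to both Serinc3 and Sfrp1 cannot be given to 1 gene; they ran from -1.32 to -0.18 in GOF papilloma and from -1.47 to -0.52 in KO carcinoma, and on all 3 control carcinoma replicate 2 was the highest array of its tumour type.

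Dkk3 passed in neither comparison, and its groups overlapped on 1 of 2 probe sets in papilloma and on neither in carcinoma. On its brighter probe set 1417312 it stood at 5.08 and 4.99 in GOF against 5.93 and 5.06 in control papilloma, with overlap. The same probe set stood at 8.91 and 9.31 in the KO, against 9.74 and 9.66 in control carcinoma, without overlap. The log2 fold changes were -0.46 (SE 0.29; adjusted p = 0.490) in GOF papilloma and -0.59 (SE 0.29; adjusted p = 0.435) in KO carcinoma. The second probe set, 1448669, gave -0.72 in papilloma and -0.84 in carcinoma, in both without overlap (unadjusted p = 0.0194 and 0.0102, adjusted p = 0.268 and 0.256 over all probe sets). Without control papilloma replicate 1 the brighter probe set gave -0.03, and without control papilloma replicate 2 it gave -0.89.

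Wif1, which binds Wnt ligands outside the cell, was scarcely measurable. It stood at 2.49 and 2.60 in GOF, against 3.42 and 3.05 in control papilloma, where control replicate 1 alone was above background. In carcinoma it stood at 3.17 and 3.54 in the KO against 3.39 and 4.16 in the controls, all below background. The log2 fold changes were -0.69 (SE 0.27, unadjusted p = 0.0427, adjusted p = 0.367) and -0.42 (adjusted p = 0.721).

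The transcription factor genes differed from each other in level of signal. Lef1, which is expressed in hair matrix cells and T cells, was at or below background on 7 of the 8 arrays, with control papilloma replicate 2 (3.37) above it. It stood at 2.55 and 2.90 in GOF against 2.96 and 3.37 in control papilloma, and at 3.95 and 3.87 in KO against 3.91 and 3.88 in control carcinoma. The log2 fold changes were -0.44 (SE 0.18, unadjusted p = 0.0438, adjusted p = 0.370) and 0.02 (adjusted p = 1). Of 9 T cell markers examined, 5 were in the gene table, and Cd3e, Cd3g and Cd2 were at or below background on every array. Thy1, which other cell types also express, was above background on all 8 arrays, and Cd3d on control carcinoma replicate 2 alone. The summed linear signal of the 5 was 282 and 240 in GOF, against 199 and 148 in control papilloma, and 121 and 153 in KO, against 146 and 301 in control carcinoma.

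Tcf7l2, which encodes the TCF4 factor, was well above background on 2 of its 4 probe sets. On probe set 1429428 it stood at 7.10 and 7.32 in GOF, against 7.90 and 8.23 in control papilloma, with a gap of at least 0.58 between the groups. The log2 fold change was -0.86 (SE 0.26, unadjusted p = 0.0133, adjusted p = 0.170), or 1.81-fold lower. In carcinoma the same probe set stood at 7.83 and 8.56 in the KO, against 8.74 and 8.71 in the controls (log2 fold change -0.53, SE 0.26, adjusted p = 0.428), and it was -0.17 without KO replicate 1 and -0.90 without KO replicate 2. The probe set 1426639 gave -0.53 in papilloma and -0.47 in carcinoma, again without overlap in either. The 2 dim probe sets gave -0.12 and 0.05 in papilloma and -0.39 and -0.59 in carcinoma.

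The 2 comparisons share no arrays. On the brightest probe sets, Lgr5, Apcdd1 and Tcf7l2 were lower without overlap in both. So were 8 of the 21 single-gene probe sets, against 4.06% of all probe sets. These 8 belong to Apcdd1, Tcf7l2, Nkd1, Dkk3 and Lgr5 and are not independent counts. For Lgr5 in carcinoma, control replicate 2 alone exceeded background, and the nearest pair of arrays differed by -0.14. For the Nkd1 probe set the nearest pairs differed by -0.02 in papilloma and -0.11 in carcinoma. The dim Axin2 probe set was lower in GOF and higher in KO (4.08% of all probe sets), and the dimmest Tcf7l2 probe set, which was below background in papilloma, was higher in GOF and lower in KO (3.73%). The test of the difference between the GOF and KO effects was passed by 11 of 13939 genes (0.0789%) and by 0 of the 8 members in the gene table by limma. Of those 8, Axin2 alone had an unadjusted p under 0.05 for that difference (0.0212, beside 14.2% of all genes), and Lgr5 had 0.0551 with a difference of -1.35 (SE 0.58; adjusted p = 0.364). For Apcdd1 the difference was 0.03 (SE 0.47).

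As the tumour types could not be compared in level, each probe set was ranked among the 45037 probe sets of its own array, as a description with no test. Apcdd1 (1418383) lay at percentiles 80.4 to 83.2 on the GOF and 88.8 to 91.0 on the control papilloma arrays, and at 32.9 to 39.0 on the KO and 55.0 to 65.9 on the control carcinoma arrays. The brighter Dkk3 probe set lay at 76.3 to 76.6 in GOF and 77.2 to 82.2 in control papilloma, and at 88.8 to 91.2 in KO and 93.5 to 93.6 in control carcinoma. The brightest Tcf7l2 probe set stayed between percentiles 80.2 and 93.6 on all 8 arrays.

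The rest of the pathway was read from 6 lists of other Wnt genes, 107 in all, of which 88 were in the gene table. In GOF papilloma Porcn fell and Dkkl1 rose. Porcn, the acyltransferase that lets Wnt ligands be secreted, stood at 6.28 and 6.10 in GOF against 8.40 and 7.52 in control papilloma (log2 fold change -1.77, SE 0.28, adjusted p = 0.0461), 3.40-fold lower. Dkkl1, a relative of the Dickkopf genes, stood at 4.51 and 4.73 in GOF against 3.30 and 3.57 in control papilloma (1.18 ± 0.16 SE, adjusted p = 0.0372). These 2 of 88 genes passed, beside 1.21% of all genes. Both calls ended when either GOF array, control papilloma replicate 1 or either KO array was left out, and on the 4 papilloma arrays alone (Porcn 0.0790, Dkkl1 0.0588). The Dkkl1 call also ended without control papilloma replicate 2 (0.100), and the Porcn call with no filter on level (0.0578).

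Of 18 receptor and R-spondin genes in the table, 15 had negative log2 fold changes in GOF papilloma, with a median of -0.31, beside 0.02 over all genes. None passed by limma, and 6 were lower and 0 higher at an unadjusted p under 0.05, against 6.47% lower and 9.94% higher over all genes. Lgr4 stood at 4.08 and 3.96 in GOF against 5.51 and 6.66 in control papilloma (-2.07 ± 0.41 SE, adjusted p = 0.0723), while its other probe set, of 2, gave -0.20. The Frizzled gene Fzd10 gave -0.70 (adjusted p = 0.0942). Znrf3, which encodes a ubiquitin ligase that removes Wnt receptors and is itself a Wnt target, gave -0.57 (0.114). Both GOF arrays were at or below background for Znrf3, so it was at least 1.41-fold lower. The lists differed in how many genes were above background on the papilloma arrays, 15 to 16 of the 18 for receptors. Of transduction genes these were 16 of 16, and of nuclear factors 9 to 10 of 10. They were fewer for ligands and secretion (9 to 10 of 17), other targets (8 to 11 of 16) and other antagonists (5 to 6 of 11). The medians of the other lists lay nearer 0, at 0.11 for ligands and secretion (17 genes), -0.09 for transduction (16), 0.14 for nuclear factors (10), -0.14 for other targets (16) and 0.04 for other antagonists (11). Those genes with the smallest p were Wls (-0.68) and Wnt4 (0.88) among ligands and secretion genes, Axin1 (-0.40), Gsk3b (-0.24) and Apc (-0.35) in the destruction complex, the co-repressor gene Tle1 (-1.58), the coactivator gene Bcl9 (-0.62) and the beta-catenin inhibitor gene Ctnnbip1 (0.63). Among targets and antagonists they were Msx2 (-0.52, with both GOF arrays at or below background), Myc (-0.80), Dlx3 (-0.90), Sostdc1 (-1.38) and Dkk4 (0.32). Apart from Porcn and Dkkl1, their adjusted p-values ran from 0.105 to 0.387. Other probe sets of some of these genes gave weaker values, up to -0.11 for Wls, -0.07 for Bcl9, -0.03 for Dlx3 and -0.16 for Msx2. Those of Gsk3b ran from -0.47 to 0.025.

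In KO carcinoma none of the 88 other Wnt genes passed by limma, beside 0.0143% of all genes, and at an unadjusted p under 0.05, 9 were lower and 5 higher, against 5.44% and 8.34% of all genes. The list medians lay between -0.09 (other targets) and 0.04 (nuclear factors), beside 0.01 over all genes. Kremen1, the co-receptor of Dickkopf proteins, had the smallest p, at 5.67 and 5.70 in the KO against 6.26 and 6.47 in control carcinoma (-0.68, SE 0.16, unadjusted p = 0.00472, adjusted p = 0.172). Among ligands Wnt7b was lower (-1.19, adjusted p = 0.270), and Wnt4 (1.00, 0.292) and Wnt3a (0.41, 0.270) were higher. The Wnt targets Nkd2 (-0.92), Notum (-0.48) and Ephb3 (-0.44) had adjusted p-values of 0.312 to 0.352. For Notum both KO arrays were at or below background, and 1 control carcinoma array was above it. Receptors Ryk (0.42), Fzd6 (0.42) and Fzd7 (-0.61), the transduction genes Axin1 (0.42), Dvl2 (0.40) and Csnk1e (-0.49), the nuclear factor genes Tle4 (-0.91), Ctnnbip1 (0.46) and Tle2 (-0.22) and the antagonist genes Sfrp2 (-1.26) and Sostdc1 (0.64) were the others with the smallest p in their lists. Their adjusted p-values ran from 0.238 to 0.689. Probe sets of 1 gene did not always match. In KO carcinoma the 3 of Csnk1e ran from -0.97 to 0.31, the 3 of Tle4 from -0.93 to -0.09 and the 3 of Nkd2 from -0.92 to -0.13. The Sfrp2 value was -0.14 without control carcinoma replicate 2 and -2.38 without control carcinoma replicate 1.

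**Figure D3:**
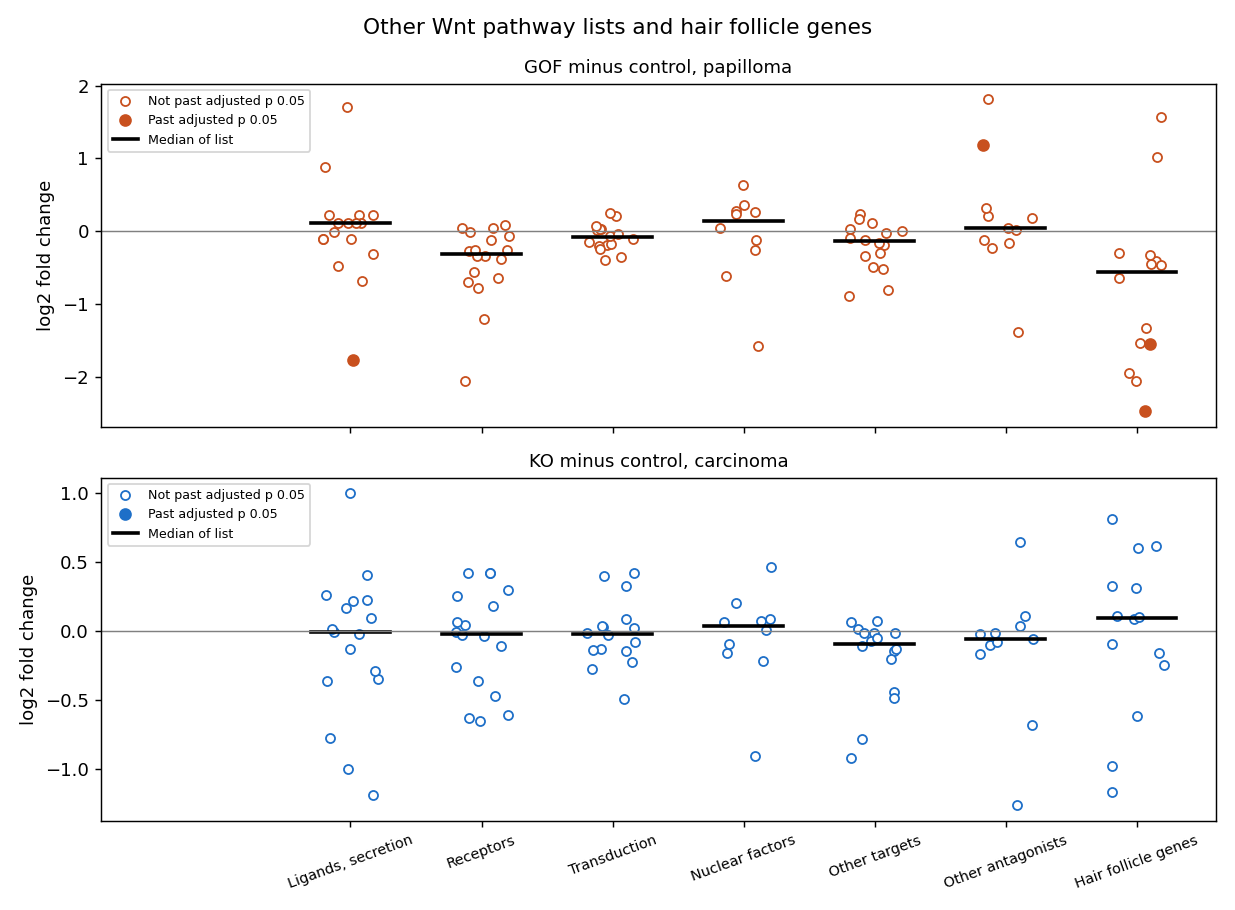
Log2 fold changes of the genes of 6 further Wnt lists and of hair follicle genes (points, 1 per gene; bars, list medians), GOF minus control in papilloma (top) and KO minus control in carcinoma (bottom). Filled points passed limma's adjusted threshold. In papilloma the receptor median is -0.31 and the hair follicle median -0.56, and in carcinoma no point is filled.

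Lgr5 and Lgr6 are known from hair follicle epithelium, and genes of the bulge and germ were read beside them. Of 14 in the table, 12 had negative log2 fold changes in GOF papilloma (median -0.56), beside 6472 of all 13939 genes, with a median of 0.02. At an unadjusted p under 0.05, 6 of the 14 were lower and 2 higher, against 6.47% and 9.94% of all genes, and 2 passed, beside 1.21%. Krt15, a keratin of bulge stem cells, fell (-2.47 ± 0.26 SE, adjusted p = 0.0185), as did the hemidesmosome collagen gene Col17a1 (-1.54 ± 0.24 SE, adjusted p = 0.0440), and the chemokine gene Cxcl14 gave -2.07 (0.0647). Cd34, which also marks blood vessels, and Fgf18 had higher values (1.57 and 1.02) without passing. The Krt15 call ended without either GOF array (0.149 and 0.190) or control papilloma replicate 2 (0.0820). The Col17a1 call ended without any 1 papilloma or KO array (0.0734 to 0.202), with no filter on level (0.0532) and on the 4 papilloma arrays alone (0.0770). In KO carcinoma 6 of the 14 were negative, with a median of 0.10, and Tbx1 (0.81, adjusted p = 0.203), Fgf18 (0.61) and Nfatc1 (-0.98) had the smallest p. The Nfatc1 value was -0.18 without control carcinoma replicate 2 and -1.78 without control carcinoma replicate 1.

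For the receptors and Apcdd1, 3 genes each were named for the likeness of their profile, measured as the root mean square difference over the 8 arrays after each tumour type was centred on its own mean. Nearest to Lgr5 were Acpp (0.19), Defb6 (0.23) and Ralgds (0.32), beside a root mean square deviation of 0.94 for Lgr5 itself. Their log2 fold changes in GOF papilloma were -2.08, -2.35 and -2.10, close to that of Lgr5 by the way they were chosen, so no test is given. Nearest to Apcdd1 were Clu (0.23), Hspa2 (0.28) and Sorcs2 (0.29), and nearest to Lgr6 were Slc39a4 (0.11), Synpo (0.17) and Iqgap2 (0.18).

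Marker genes of non-epithelial cells differed with the groups. In papilloma all 9 macrophage and all 9 endothelial markers had higher mean values in GOF, where 7459 of all 13939 genes had a positive log2 fold change. Of these markers 2 and 5 passed, beside 1.21% of all genes. The summed linear signal of the macrophage list was 637 to 1301 on the GOF arrays, against 89.9 to 90.1 on the control papilloma arrays, where Lyz2 and C1qb were at or below background. That of the endothelial list was 451 to 500 on the GOF arrays, against 102 to 114 on the controls, with Esam at or below background. The 8 fibroblast and dermal papilla markers in the table, of 11 listed, summed to 6666 and 8495 in GOF, against 6723 and 3379 in control papilloma. All 8 had positive log2 fold changes in GOF papilloma, with a median of 0.91, beside 0.02 over all genes, and none passed by limma, nor at an unadjusted p under 0.05 (0 of 8). The summed keratinocyte list was 14080 and 14140 in GOF, against 15980 and 16040 in control papilloma.

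In carcinoma the fibroblast list summed to 1256 and 3120 in the KO, against 2310 and 5542 in the controls, the highest array being control replicate 2, and Lum, Dpt and Mfap5 were at or below background on both KO arrays. All 8 fibroblast markers had negative log2 fold changes in KO carcinoma, with a median of -1.10, beside 0.01 over all genes, and none passed by limma, with 1 lower at an unadjusted p under 0.05. The macrophage list summed to 406 and 473 in the KO against 419 and 1206 in the controls, with Adgre1 at or below background in the KO, and the endothelial list to 361 and 371 against 446 and 798, with Plvap, Emcn, Kdr and Esam there. Control carcinoma replicate 2 also had the highest Lgr5, Sfrp1 and Wif1 of the 4 carcinoma arrays, whereas Apcdd1 and Lgr6 were highest on control replicate 1. Sfrp1 and Dkk3 are also made by fibroblasts. The part of these cells in the values of the 10 genes was not tested. Without control carcinoma replicate 2 the log2 fold change in carcinoma was -0.21 for Sfrp1, -0.20 for Lgr5 and -0.037 for Wif1, against -1.18, -0.91 and -0.42 with it. Without the same array it was -1.87 for Apcdd1, -1.47 for Lgr6, -0.63 for Dkk3 and -0.55 for Tcf7l2, against -1.44, -1.05, -0.59 and -0.53 with it.

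**Figure D4:**
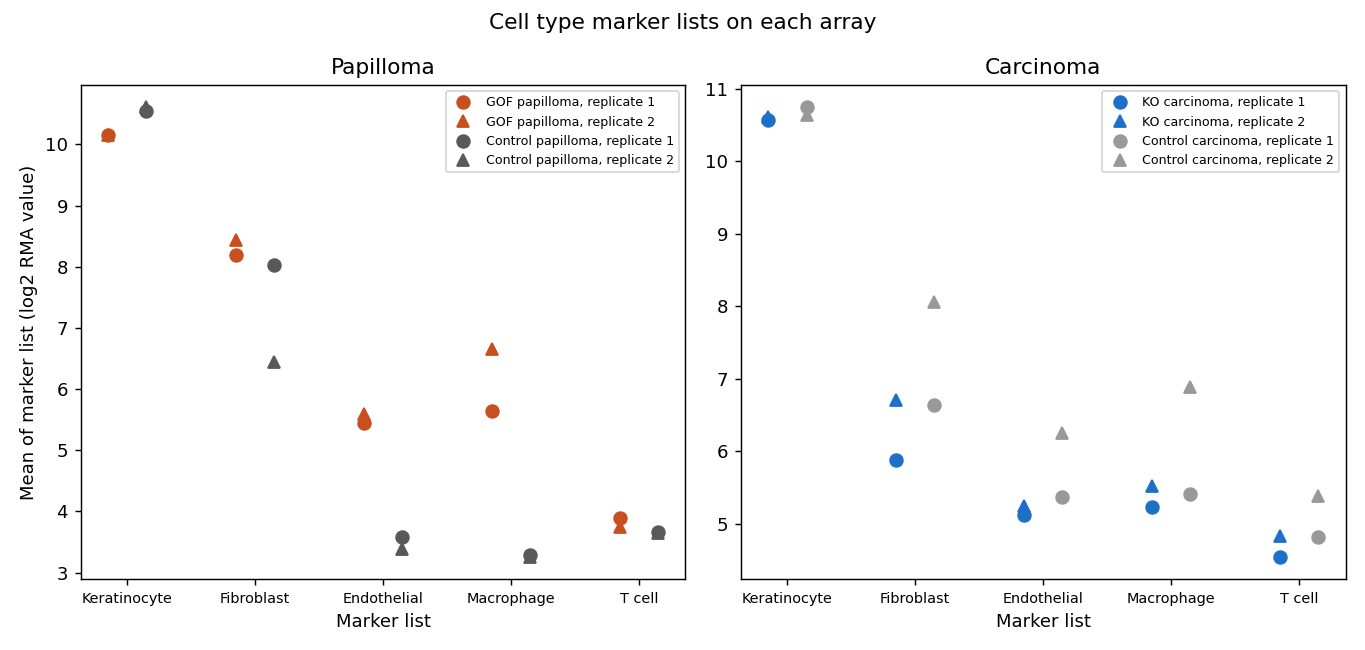
Mean log2 RMA value of 5 cell type marker lists on each array, in papilloma (left) and carcinoma (right), with circles for replicate 1 and triangles for replicate 2. Macrophage and endothelial lists are higher on both GOF arrays than on the control papilloma arrays, and control carcinoma replicate 2 has the highest fibroblast, endothelial and macrophage means of the carcinoma arrays.

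Promoter windows from RefSeq (GRCm38.p6, 250 bases before to 50 after the start) were read for 6 of the 10 genes. Windows on chromosome 18, which holds Apcdd1, were left out of the reading, so Apcdd1 was not examined. The 6 genes were Lgr6, Axin2, Nkd1, Wif1, Lef1 and Tcf7l2, with 10 windows among them. The TCF and LEF motifs CTTTGAT and CTTTGAA, read on both strands, matched in 0 of the 10, against 8.65% of all 32851 windows, and the nuclear receptor half-site AGGTCA matched in 0 of the 10, against 16.3%. This says only that these letters are not in these windows.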

How the data were processed

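RNA of Epcam-sorted tumour cells was hybridised to 8 Affymetrix mouse genome PM strip arrays. The authors deposited log2 values normalized with RMA, per the labels' protocols; the submitters' processing notes also name affy, and versions and genome build are not given in the sources used here. Papilloma and carcinoma columns have different medians, so they were treated as normalized separately.

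The table held 45141 probe sets, 104 of them controls. By the platform annotation, 28898 others had 1 gene symbol, 551 several and 15588 none. Of those with 1 symbol, 28689 were matched by Entrez number to RefSeq genes (GRCm38.p6), which gave the gene names. For the gene table, the brightest single-gene probe set stood for a gene, among those where at least 2 of 8 arrays exceeded the median of all values (4.23). This left 13939 genes, with 8 of the 10 members. The cut lies below carcinoma background (4.95 to 5.01), so genes at or below background on all 8 arrays could enter, as Cdx1 and Fzd9 did. Counts and shares over the gene table include such genes. Wif1 and Lef1 did not pass the filter and are given from the fit over all 45037 non-control probe sets without a filter. Adjusted p-values of the brightest probe set of the other 8 are from the gene table, as are their SEs, and those of further probe sets from the probe set fit.

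Tests used limma 3.58.1 in R 4.3.3 (lmFit, eBayes; 1 mean per group over 8 arrays; 4 residual and 2.67 prior degrees of freedom), with Benjamini-Hochberg adjustment over all features and a threshold of 0.05, and were tested on simulated data. An exact permutation test of 2 arrays against 2 cannot go below p = 0.333, so none was used. Where the dimmer group lay at or below background on both arrays, the fold is a lower bound: the brighter mean against the mean of, per array, the higher of background and the probe set's own value. Control probes binned by GC content reached 4.51 to 7.34 and were not used for background. They reached 5.21 on control papilloma replicate 1 and 4.51 on replicate 2, where Lgr5 stood at 4.98 and 4.79 and the brighter Axin2 probe set at 4.71 and 4.26. The number of arrays limits the precision.

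The members and gene lists were chosen with earlier results of these data known. All 10 members are named with their probe sets; from the other lists, genes past the threshold and the 3 with the smallest p in each comparison. The melanocyte and Schwann cell list had 3 of 7 genes in the table, with summed signals of 25.9 to 27.9 in GOF, 29.9 to 30.6 in control papilloma, 112 to 132 in KO and 118 to 142 in control carcinoma. Replicate numbers were treated as names, and 18 settings were run beside those above, counting each array left out.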

Additional observations from a re-analysis of the deposited data

How the results depend on the processing

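Each value below was computed with 1 choice changed, and the cause of a change was not tested unless the setting itself shows it. With the replicate number as a block, 3 genes passed in GOF papilloma, 0 in KO carcinoma and 3 for the difference of effects, against 169, 2 and 11 without it, and 5 and 0 probe sets passed, against 83 and 3. Porcn (0.0851), Dkkl1 (0.0719), Krt15 (0.0755) and Col17a1 (0.110) then no longer passed. The labels do not pair the numbers, and deviations of same-numbered arrays correlated at 0.0018 in papilloma and 0.125 in carcinoma. Of the 10 members, 1 passed in GOF papilloma (Lgr5) on the 4 papilloma arrays alone, with a filter within each tumour type, with quantile normalization and with median centring. Over all genes 196, 219, 143 and 205 passed in these settings. Of the member probe sets, 1 passed on the 4 arrays alone, where 109 of all probe sets did, and 1 with quantile normalization. The KO carcinoma count was 0 genes and 0 probe sets on its 4 arrays alone, 0 genes with probe sets averaged and 32 with a trended and robust prior. For the difference of effects 39 genes passed with the filter within tumour types, 6 with probe sets averaged, 51 with centring and 68 with the trended prior. In GOF papilloma 189 probe sets passed with the filter on level, 130 with quantile normalization and 139 with centring.

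Leaving out 1 array gave 1 (without GOF replicate 2) to 297 genes (without either control carcinoma array) in GOF papilloma, 0 to 122 genes in KO carcinoma (122 without control replicate 1) and 1 to 274 for the difference, with 1 to 263 and 0 to 366 probe sets in GOF papilloma and KO carcinoma. Members past the threshold numbered 0 to 1 in either comparison, and member probe sets 0 to 1 in GOF papilloma and 0 to 2 in KO carcinoma; without control carcinoma replicate 1 these were Lgr5 and a probe set annotated to both Serinc3 and Sfrp1. Signs turned for the following, none of which had passed. Nkd1 in GOF papilloma was -0.039 with probe sets averaged, -0.11 without probe sets that may cross-hybridise, and -0.17 to 0.24 with 1 array left out. The difference of effects for Apcdd1 was -0.15 with probe sets averaged, -0.25 with quantile normalization and -0.39 to 0.46 with 1 array left out. For Tcf7l2 it was 0.13 with probe sets averaged and -0.69 to 0.042 with 1 array left out, and for Sfrp1 0.10 with quantile normalization and -1.23 to 0.71. With 1 array left out it ran from -0.088 to 0.32 for Nkd1, from -0.30 to 0.56 for Dkk3 and from -0.039 to 1.44 for Lgr6. In KO carcinoma Axin2 ran from -0.024 to 0.20, Lef1 from -0.023 to 0.060 and Sostdc1 from -0.19 to 1.47. Signal near background limits Lgr5 in carcinoma, Wif1, Lef1 and Nkd1.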
